A study of Mus musculus with 6 samples.

Results

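The 8 genes Srebf2, Insig1, Hmgcs1, Mvd, Idi1, Fdft1, Sqle and Lss represent cholesterol synthesis and the transcription factor that drives it, and they were taken by gene name from a table of 45706 genes. All 8 were expressed well enough to be tested among 11440 genes. None of them passed the test between RBMS1 knockdown and scrambled control. For 6 of the 8 the knockdown samples spread more than the controls on the log2 scale, as for 52.4% of all tested genes.

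The samples were 3T3-L1 cells, a mouse embryo fibroblast line that turns into fat-storing adipocytes when given a hormone mixture. The 3 scrambled control samples are labelled WT, although they carried a scrambled hairpin, and the 3 RBMS1 knockdown samples RBMS1KD, and all 6 were differentiated with IBMX, insulin, dexamethasone and rosiglitazone and harvested on day 7. RBMS1 is an RNA-binding protein. It was reduced with a short hairpin RNA carried by a lentivirus, in cells kept under puromycin as a stable population, so that every knockdown sample descends from transduced and selected cells. The study's methods call the 3 replicates of each group biological and describe experiments as repeated independently, and p-values measure the spread between these samples. The sources used here do not say whether the replicates came from separate transductions. If they did not, p-values do not measure differences between transduced lines.

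Animal cells build cholesterol from acetyl-CoA. The first steps lead to mevalonate and then to the isoprenoid building block isopentenyl pyrophosphate, the middle steps join these units into squalene, and the last steps close the rings and trim them to cholesterol. SREBP2, the product of Srebf2, is made as a protein of the endoplasmic reticulum membrane. When sterols are scarce the escort protein SCAP carries it to the Golgi, where proteases release the part that enters the nucleus and switches on the enzymes of this pathway. When sterols are plentiful, INSIG proteins hold SCAP back, and Insig1 is itself an SREBP target, which closes a feedback loop. Adipocytes hold much of the body's free cholesterol around their lipid droplets.

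Total counts ranged from 3142695 in control replicate 2 to 11073098 in knockdown replicate 3. Control replicate 2 stood apart, with 43% of its counts on genes derived from ribosomal RNA against 8.12% to 17.8% in the other samples. Values below are CPM, counts scaled to library size and to TMM factors, which correct for differences in RNA composition and ranged from 0.642 to 1.23. The level of 3 counts, the most that a count of 0 allows, was 0.22 to 1.49 CPM, a limit for counting error only, and the 8 genes had between 144 and 8156 counts in a sample. Rbms1, the target of the hairpin, was at 113, 102 and 99.6 CPM in the controls and 49.2, 61.4 and 84.0 CPM in the knockdown samples, with all knockdown samples below all controls. Its log2 fold change was -0.69 (SE 0.20), with an adjusted p of 0.185 from edgeR's quasi-likelihood test, and the adjusted p ranged from 0.0708 to 0.572 over the alternatives. The defining adipocyte markers Adipoq, Plin1, Fabp4 and Cidec were present in every sample, the lowest value being 348 CPM (Plin1 in knockdown replicate 2), while Lep did not exceed 1.61 CPM. Fibroblast genes were present too, Col1a1 lying between 875 and 3292 CPM. Of 5 markers of other cell types, Ptprc, Adgre1 and Epcam had no counts, and the endothelial marker Pecam1 had at most 10. The epithelial keratin Krt18 had 37 and 39 counts in knockdown replicates 1 and 2 (5.32 and 4.56 CPM) and 1 to 4 in the other samples.

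A gene was called where its adjusted p, corrected over all tested genes, was at most 0.1. By that rule edgeR called 140 genes (1.22%), 104 of them lower (0.909%) and 36 higher (0.315%) in the knockdown. Scaled by library size alone, 126 were called, of which 33.3% were lower, against 74.3% of the 140. Of the 8 genes it called 0. DESeq2 called 3.2% of the genes that it could adjust and also 0 of the 8. At an unadjusted p under 0.05, 1 of the 8 passed (Mvd), where 12.4% of all tested genes did. The fold changes of 6 of the 8 lay below 0 and those of 2 above, and their median was -0.082 on the log2 scale against 0.0044 for all tested genes. When counts were scaled by library size alone, the median of all genes shifted to 0.37 and that of the 8 genes to 0.28, so that relative to all genes it was -0.095. With all 6 samples, the 95% intervals of the 8 fold changes together covered 0.553 to 1.49. The interval of Mvd lay just below a fold of 1, and those of the other 7 included it.

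**Figure D1:**
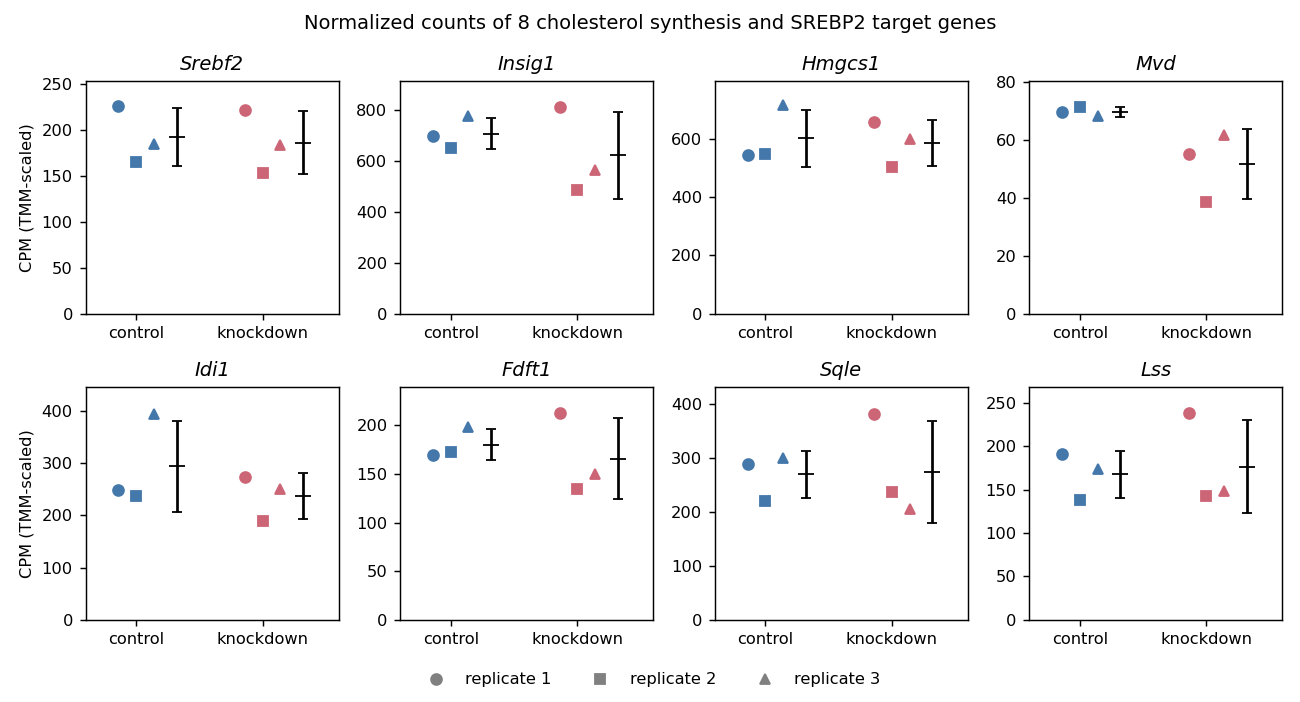
TMM-scaled CPM of each of the 8 genes in the 3 scrambled control and 3 RBMS1 knockdown samples, on linear axes from 0 that differ between panels. Symbols mark the replicates, and the bar beside each group is the mean with its SD (n = 3). The groups overlap for 7 of the 8 genes, and Mvd is the exception.

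The start regions of 3 of the genes are shown, picked by their counts, and no link between sequence and counts was tested. Mvd was the only one of the 8 whose groups did not overlap, Hmgcs1 had the least spread, and Lss had the highest fold change of the 8. The sequences are the mouse reference upstream of the start site, from RefSeq (GRCm38.p6), 5′ to 3′ on the strand of the gene, and end at the base before the RefSeq start (for Lss, before the start of the GENCODE gene, which lies further upstream). Capitals mark matches, on either strand, to the sterol-element-like motif TCACNCCAC, the CCAAT box (CCAAT, or ATTGG on the other strand) and the GC box (GGGCGG, or CCGCCC on the other strand). The Hmgcs1 region is chr13:119690201-119690350 (plus strand), the Mvd region chr8:122443423-122443572 (minus strand) and the Lss region chr10:76531455-76531587 (plus strand).
Hmgcs1: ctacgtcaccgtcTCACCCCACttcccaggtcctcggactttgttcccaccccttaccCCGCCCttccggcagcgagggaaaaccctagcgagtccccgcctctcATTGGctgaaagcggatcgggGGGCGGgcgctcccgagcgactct
Mvd: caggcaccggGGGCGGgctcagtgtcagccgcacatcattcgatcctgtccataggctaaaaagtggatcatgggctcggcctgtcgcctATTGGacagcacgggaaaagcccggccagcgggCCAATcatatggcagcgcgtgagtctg
Lss: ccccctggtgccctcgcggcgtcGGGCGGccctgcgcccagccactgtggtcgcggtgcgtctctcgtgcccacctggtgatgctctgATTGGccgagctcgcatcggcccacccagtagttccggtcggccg

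Counted from the RefSeq start, with -1 as the base before it, the sterol-element-like match of Hmgcs1 began at -137 and a CCAAT box on the opposite strand at -45. Mvd held 2 CCAAT boxes, at -60 and -27, and Lss held 1, at -62. Entries for 6 of the 8 genes were matched in the RefSeq promoter table. In their 250 bases before the RefSeq start, searched on both strands, TCACNCCAC was found in Hmgcs1 alone, and in 1.22% of 27025 genes. Of the 16 cholesterol synthesis genes in the table, Hmgcs1 was again the only one with it. CCAAT was found in all 6 and in 15 of the 16, against 37.5% of all genes. GGGCGG was also found in all 6 and in 15 of the 16, against 35.4% of all genes. The E-box CACGTG was found in 1 of the 6 (Insig1) and in 3 of the 16, against 6.86% of all genes. The matches printed above do not overlap. They are matches of letters, and binding was not measured.

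Srebf2 (ENSMUSG00000022463, chromosome 15 from 82147181 to 82205379, plus strand, GRCm38), which encodes the transcription factor itself, was almost level between the groups. It was at 226, 165 and 184 CPM in the controls and 221, 153 and 183 CPM in the knockdown samples. Replicate 1 was the highest and replicate 2 the lowest within each group, and the groups overlapped throughout. The means were 192 ± 30.8 and 186 ± 34.0 CPM (SD, n = 3), a log2 fold change of -0.045 (SE 0.18, 95% interval -0.46 to 0.37, adjusted p = 0.948 by edgeR).

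Insig1 (ENSMUSG00000045294, chromosome 5 from 28071363 to 28078662, plus strand), the sterol-sensing brake on SREBP processing, was the most abundant of the 8 per unit of length. It was at 695, 650 and 773 CPM in the controls and 811, 485 and 565 CPM in the knockdown samples. Knockdown replicate 1 was the highest of all 6 samples, while replicates 2 and 3 were below every control. The means were 706 ± 62.1 and 620 ± 170 CPM (SD, n = 3). The log2 fold change was -0.19 (SE 0.22, 95% interval -0.67 to 0.30, adjusted p = 0.781 by edgeR).

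Hmgcs1 (ENSMUSG00000093930, chromosome 13 from 119690379 to 119708260, plus strand) encodes the cytosolic HMG-CoA synthase at the head of the pathway. It was at 544, 547 and 715 CPM in the controls and 659, 503 and 599 CPM in the knockdown samples. Its highest sample was 1.42 times its lowest, the narrowest range of the 8, and the groups overlapped. The means were 602 ± 97.6 and 587 ± 78.6 CPM (SD, n = 3), with a log2 fold change of -0.036 (SE 0.19, 95% interval -0.46 to 0.39, adjusted p = 0.96 by edgeR).

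Mvd (ENSMUSG00000006517, chromosome 8 from 122433601 to 122443422, minus strand) encodes mevalonate diphosphate decarboxylase, which makes isopentenyl pyrophosphate. It was at 69.6, 71.5 and 68.3 CPM in the controls and 55.2, 38.5 and 61.7 CPM in the knockdown samples. Every knockdown sample lay below every control, as for 9.55% of all tested genes, and the controls had a mean of 69.8 CPM with an SD of 1.59. The knockdown mean was 51.8 ± 12.0 CPM (n = 3). The fold was 0.743 (95% interval 0.553 to 0.997, log2 fold change -0.43, SE 0.19), with an unadjusted p of 0.0481 and an adjusted p of 0.395 by edgeR. Chromosome 8 as a whole was lower in the knockdown samples, with a median log2 fold change of -0.38 over its 624 tested genes and 90.1% of them below 0. With chromosome medians taken out of each sample, the log2 fold change of Mvd was -0.04 (adjusted p = 0.966 by edgeR). With library size alone it was -0.037, but the median of all tested genes was then 0.37, so Mvd stayed below it. Without knockdown replicate 2 the log2 fold change was -0.24.

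Idi1 (ENSMUSG00000058258, chromosome 13 from 8885501 to 8892451, plus strand) encodes the isomerase that converts isopentenyl pyrophosphate to its reactive form. It was at 249, 238 and 395 CPM in the controls and 273, 189 and 251 CPM in the knockdown samples. Control replicate 3 stood above the other 5 samples, and the groups overlapped. The means were 294 ± 87.9 and 238 ± 43.1 CPM (SD, n = 3), with a log2 fold change of -0.31 (SE 0.23, 95% interval -0.82 to 0.21, adjusted p = 0.636 by edgeR). Without control replicate 3 the log2 fold change was -0.034. Its estimated counts were not whole in 4 of the 6 samples, as happens where reads are shared with another gene, and its level is uncertain to that extent.

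Fdft1 (ENSMUSG00000021273, chromosome 14 from 63145150 to 63179578, minus strand) encodes squalene synthase, which commits the pathway to sterols. It was at 169, 173 and 198 CPM in the controls and 213, 134 and 150 CPM in the knockdown samples. As with Insig1, knockdown replicate 1 was the highest of the 6 and the other two knockdown samples were below every control. The means were 180 ± 15.7 and 166 ± 42.0 CPM (SD, n = 3), with a log2 fold change of -0.12 (SE 0.19, 95% interval -0.55 to 0.31, adjusted p = 0.851 by edgeR). Its estimated counts were not whole in 3 samples.

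Sqle (ENSMUSG00000022351, chromosome 15 from 59315077 to 59331192, plus strand) encodes squalene epoxidase, an oxygen-dependent and rate-limiting step. It was at 289, 220 and 300 CPM in the controls and 382, 237 and 205 CPM in the knockdown samples. The knockdown group held both the highest and the lowest of the 6 samples. The means were 269 ± 43.4 and 275 ± 94.1 CPM (SD, n = 3), with a log2 fold change of 0.026 (SE 0.24, 95% interval -0.52 to 0.57, adjusted p = 0.976 by edgeR).

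Lss (ENSMUSG00000033105, chromosome 10 from 76531588 to 76557138, plus strand) encodes lanosterol synthase, which closes the sterol rings. It was at 191, 138 and 174 CPM in the controls and 238, 143 and 149 CPM in the knockdown samples. Knockdown replicate 1 was again the highest sample, and the lowest was control replicate 2. The means were 168 ± 26.9 and 177 ± 53.4 CPM (SD, n = 3), with a log2 fold change of 0.077 (SE 0.22, 95% interval -0.42 to 0.58, adjusted p = 0.925 by edgeR).

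Levels of different genes were compared as CPM per kilobase of the longest coding transcript. In the controls Insig1 was the highest at 262 ± 23.0 CPM per kb (SD, n = 3), followed by Hmgcs1 at 174 ± 28.2. Sqle and Idi1, at 97.7 ± 15.7 and 97.1 ± 29.0 CPM per kb, overlapped each other. Fdft1 came next at 48.7 ± 4.23 CPM per kb. Mvd at 39.7 ± 0.906, Srebf2 at 37.8 ± 6.06 and Lss at 35.9 ± 5.77 CPM per kb were the lowest, and each overlapped the next in that order. In the knockdown samples the first 5 places were held by the same genes in the same order. Lss, Srebf2 and Mvd followed at 37.9 ± 11.4, 36.6 ± 6.70 and 29.5 ± 6.84 CPM per kb. Neighbours that did not overlap there were Hmgcs1 and Sqle, and Idi1 and Fdft1, so the other places in that order were not separated by more than the spread of the samples.

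On the log2 scale the SD among knockdown samples was larger than that among controls for 6 of the 8 genes, as it was for 52.4% of all tested genes. Hmgcs1 and Idi1 had the larger SD among controls. The median SD of the 8 was 0.23 in the controls and 0.35 in the knockdown samples, against 0.24 and 0.26 over all tested genes. Among the 3 knockdown samples, replicate 1 was the highest for 7 of the 8 genes and replicate 2 the lowest for 7 of the 8. The median deviation of the 8 genes from their 6-sample means was 0.1, -0.12 and 0.2 in control replicates 1, 2 and 3. In knockdown replicates 1, 2 and 3 it was 0.28, -0.32 and -0.12, which spans more than the controls do. Summed over the 8 genes, expression was 2432, 2202 and 2807 CPM in the controls and 2852, 1884 and 2163 CPM in the knockdown samples.

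**Figure D2:**
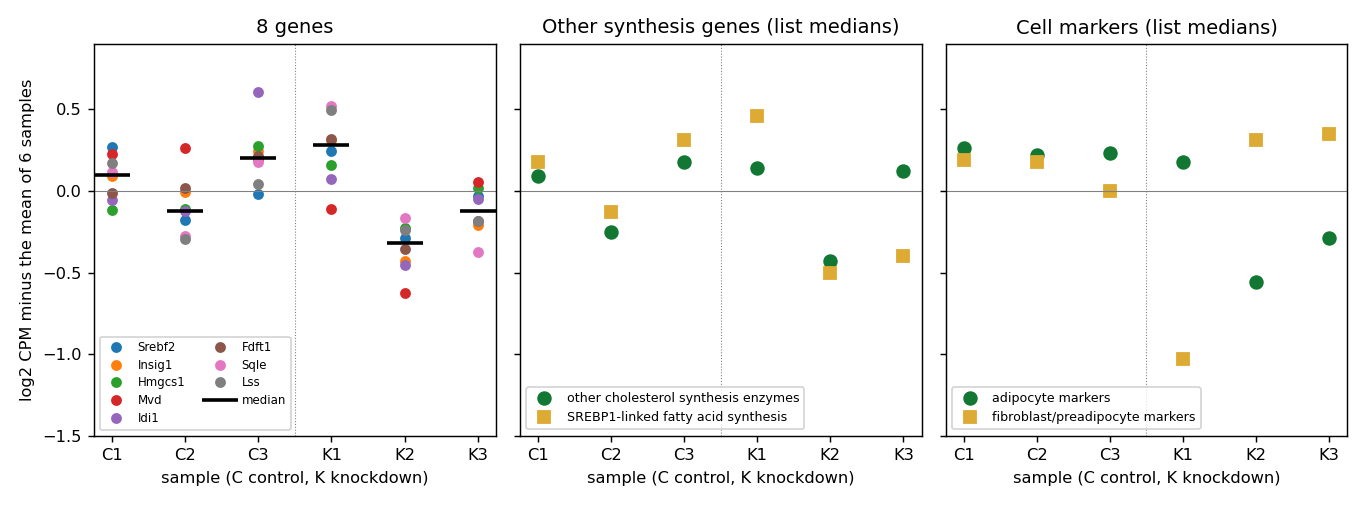
Deviation of log2 CPM from the mean of the 6 samples, for C1 to C3 (scrambled control) and K1 to K3 (RBMS1 knockdown): the 8 genes singly with their median as a bar, the list medians of other synthesis genes, and the list medians of cell markers. K1 and K2 hold the highest and lowest medians of the 8 genes, 0.28 and -0.32, and the fibroblast and preadipocyte markers are lowest in K1, at -1.03.

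Cell type markers differed between the same samples. The adipocyte list (13 of 14 tested, 12 of them below 0) had median deviations of 0.26, 0.22 and 0.23 in the controls and 0.18, -0.56 and -0.29 in knockdown replicates 1, 2 and 3, and its summed level was 25249 to 30117 CPM in the controls and replicate 1 but 14300 and 16553 CPM in replicates 2 and 3. The fibroblast and preadipocyte list (11 of 12 tested, 7 of them below 0) was at -1.03 in knockdown replicate 1 and at 0.31 and 0.35 in replicates 2 and 3, with 0.0012 to 0.19 in the controls. Its summed level was 6346 CPM in knockdown replicate 1, 9518 to 11665 CPM in the controls, and 12456 and 11797 CPM in knockdown replicates 2 and 3. Among the knockdown samples, replicate 1 was the highest for 12 of the 13 adipocyte genes and the lowest for all 11 of the fibroblast and preadipocyte genes. Of the adipocyte list edgeR called 1 gene lower (Retn), and DESeq2 called 4 lower (Retn, Lpl, Acsl1 and Plin4) and 1 higher (Cd36). Retn, Lpl and Acsl1 lie on chromosome 8, which had a median log2 fold change of -0.38. Of the fibroblast and preadipocyte list edgeR called 0, and DESeq2 called 1 lower (Pdgfra). By edgeR, 5 of the 13 adipocyte genes and 2 of these 11 had an unadjusted p under 0.05, against 12.4% of all tested genes. The defining adipocyte markers Adipoq, Plin1, Fabp4 and Cidec had log2 fold changes of -0.24, -0.43, -0.46 and -0.28. Neither tool called them with all samples. Without knockdown replicate 1 edgeR called 8 of the 13 adipocyte genes lower, among them Plin1 and Cidec (adjusted p = 0.0719 and 0.0876), where it called 3.63% of all tested genes lower and 2.3% higher. Scaled by library size alone, Adipoq, Plin1, Fabp4 and Cidec were at 0.14, -0.055, -0.019 and 0.099, where the median of all tested genes was 0.37. Dlk1, Pdgfra, Col1a1 and Col3a1 were at -0.84, -0.87, -0.35 and -0.24, while 4 other genes of that list lay above 0, up to 0.52. Pdgfra was called lower by DESeq2 (adjusted p = 0.0277) and by edgeR without knockdown replicate 1 (adjusted p = 0.0665), but not by edgeR with all samples (adjusted p = 0.155). Acta2, of the same list, was called higher by edgeR without knockdown replicate 1 (log2 fold change 1.09, adjusted p = 0.0938). Neither tool called Dlk1, Col1a1 or Col3a1 with all samples, and Col1a1 and Col3a1 were at 0.0059 and 0.16 when scaled by library size alone. The part of cell makeup in the cholesterol gene values was not tested, and in bulk RNA fewer cells of a type and less RNA per cell cannot be told apart.

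The fold changes of the 8 genes depended on which samples were kept, controls as well as knockdown samples. Without knockdown replicate 1 the fold changes of all 8 were below 0, with a median of -0.31 and Insig1 at -0.42. Without knockdown replicate 2 only 3 of the 8 were below 0, with a median of 0.053 and Insig1 at -0.024. Leaving out control replicates 1, 2 and 3 gave medians of -0.13, -0.15 and -0.039, and leaving out knockdown replicate 3 gave -0.047. All 8 were below 0 without control replicate 2 too. None of the 8 was called in any of these fits. Over the 16 alternative fits of the 8 genes, 128 values in all, the smallest adjusted p was 0.226, and 16 values had the other sign from the value given above, 9 of them with a sample left out and 5 with library size alone.

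**Figure D3:**
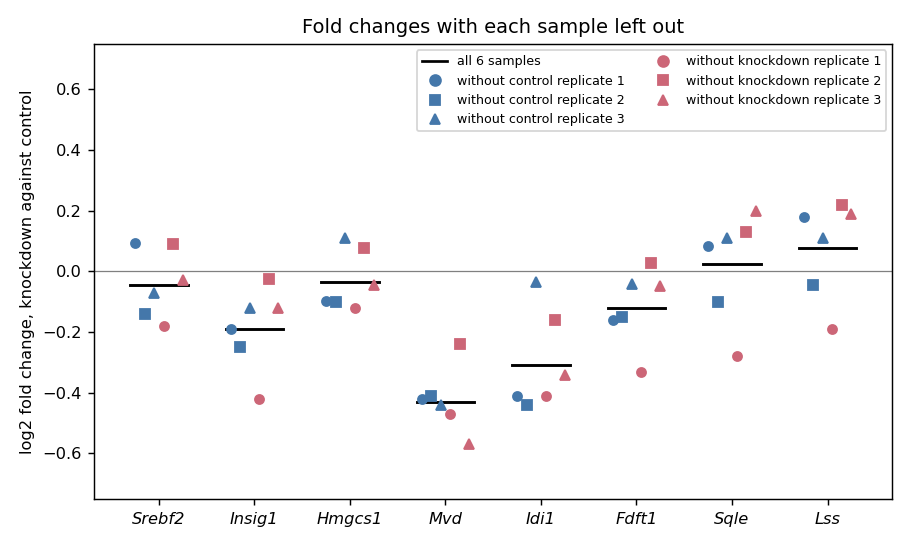
Log2 fold change of RBMS1 knockdown against scrambled control for each of the 8 genes, with all 6 samples (black bar) and with each sample left out (blue, a control left out, and red, a knockdown sample left out). Leaving out knockdown replicate 1 gives the lowest value for 6 of the 8 genes, and no value was called.

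Across the 6 samples the 8 genes followed one another to different degrees. Pearson's r of log2 CPM over the 28 pairs ran from 0.028 (Mvd and Sqle) to 0.98 (Insig1 and Fdft1), with a median of 0.66, and 20 pairs were over 0.5. Sqle and Lss, which act in succession, had r = 0.94, and Hmgcs1 and Idi1 had r = 0.92. These 6 points are shared by every pair and include both groups, so the r values are descriptions of these libraries. Outside the lists used here, the tested genes with the highest mean r with the 8 genes over the 6 samples were Pip5k1a (mean r 0.81, single r 0.65 to 0.99), Saraf (mean r 0.80) and Smim7 (mean r 0.80).

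In the whole pathway, 21 cholesterol synthesis enzymes were tested, including the 6 described above. Of these, 1 was called lower (Pmvk), 0 were called higher, 12 lay below 0, and the median was -0.054. The sign of that median turned with 1 library. It was -0.28 without knockdown replicate 1 (17 below 0), 0.093 without knockdown replicate 2 (7 below 0) and 0.11 without control replicate 3, and it was -0.16 without control replicate 2. With chromosome medians removed it was -0.0077. Pmvk (chromosome 3 from 89454541 to 89469013) encodes phosphomevalonate kinase, which supplies the substrate of Mvd. It was at 82.4, 112 and 99.6 CPM in the controls and 59.1, 45.2 and 50.6 CPM in the knockdown samples, with no overlap. The log2 fold change was -0.92 (SE 0.17, 95% interval -1.31 to -0.53, adjusted p = 0.0643 by edgeR and 0.0023 by DESeq2). The call was lost when control replicate 1, 2 or 3 or knockdown replicate 2 or 3 was left out, with log2 fold changes of -1.03, -0.82, -0.91, -0.82 and -0.90 and adjusted p of 0.132, 0.254, 0.238, 0.228 and 0.112. It was lost also with chromosome medians removed (log2 fold change -0.77, adjusted p = 0.149) or with library size alone (-0.51, adjusted p = 0.345). The median over the tested genes of chromosome 3 was -0.13 (log2). Without knockdown replicate 1, Fdps, which makes farnesyl pyrophosphate, was called as well as Pmvk, where 3.63% of all tested genes were called lower against 0.909% with all samples.

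**Figure D4:**
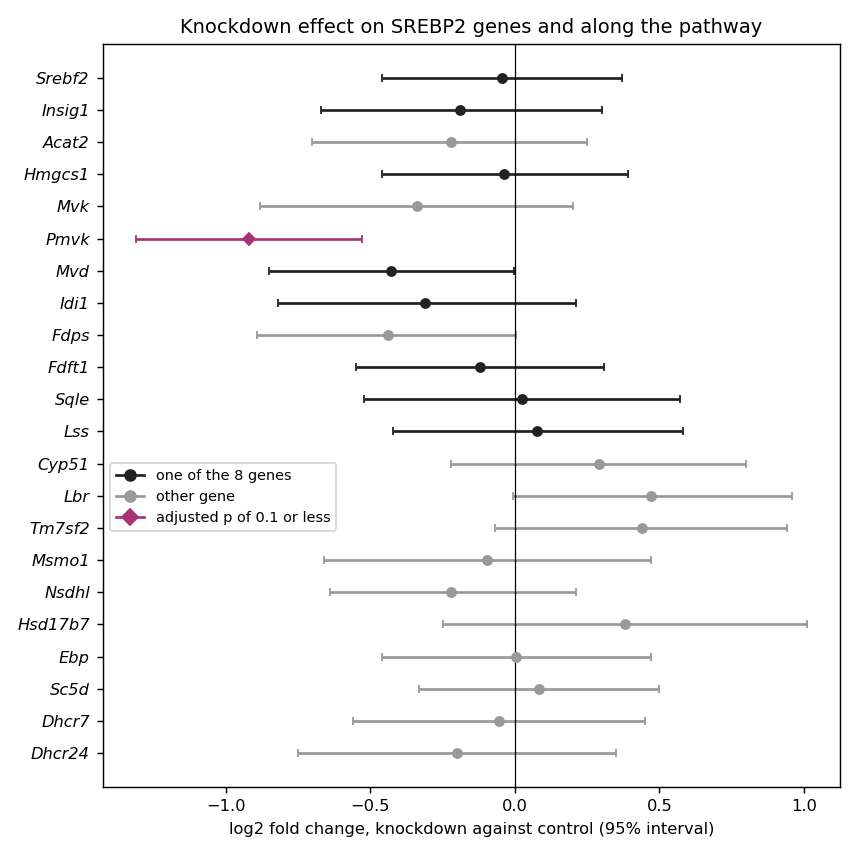
Log2 fold change of RBMS1 knockdown against scrambled control with its 95% interval for Srebf2, Insig1 and cholesterol synthesis enzymes in the order of the pathway. Black marks the 8 genes, grey other genes and purple the single gene at an adjusted p of 0.1 or less, Pmvk, at -0.92.

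The enzymes around the 8 genes spread to both sides of 0. Lbr, a sterol reductase that also anchors chromatin to the nuclear envelope, was higher in every knockdown sample than in every control, as were 8.96% of tested genes, at 15.9, 14.4 and 21.0 against 22.1, 21.5 and 28.0 CPM (log2 fold change 0.47, SE 0.21, adjusted p = 0.406 by edgeR, 0.24 with chromosome medians removed). Over the 15 enzymes that are not among the 8, the median deviation was 0.14, -0.43 and 0.12 in knockdown replicates 1, 2 and 3, so that replicate 2 was again the lowest, and it was the lowest knockdown sample for 13 of the 15.

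Other genes that SREBP2 controls did not pass the test with all samples either. Of 6 listed genes outside the synthesis pathway 5 were tested, with 0 called and 4 below 0. The list includes Srebf2 and Insig1, and its median, -0.19, was the value of Insig1 itself. That median was -0.42 without knockdown replicate 1 and -0.024 without knockdown replicate 2. Of the 5, 1 was called lower without knockdown replicate 1, where 3.63% of all tested genes were. The other genes of this list are given by these counts alone.

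Of 13 genes of the SREBP processing and sterol-regulated protein degradation machinery, Srebf2 and Insig1 among them, 0 were called and 8 lay below 0. The median, -0.045, equalled the value of Srebf2 at the digits given. It was -0.18 without knockdown replicate 1 (11 below 0), -0.13 without control replicate 1 or 2, and 0.019 with chromosome medians removed. Srebf1, which encodes SREBP1, was called lower without knockdown replicate 1, in the fit that called 3.63% of all tested genes lower. Scap, the escort of SREBP, did not overlap between groups and was at 56.6, 43.2 and 52.5 CPM in the controls and 61.7, 58.6 and 60.8 CPM in the knockdown samples (log2 fold change 0.25, adjusted p = 0.563 by edgeR). Mbtps1, a protease that cleaves SREBP in the Golgi and lies on chromosome 8 as Mvd does, was lower in every knockdown sample than in every control, with a log2 fold change of -0.25 (adjusted p = 0.513 by edgeR). With chromosome medians removed it was 0.15. With library size alone it was 0.13, where the median of all tested genes was 0.37.

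Of 8 genes of the isoprenoid branches, 0 were called and 5 lay below 0, with a median of -0.23. Without control replicate 2, the library rich in ribosomal RNA, the median was -0.021 and 4 lay below 0. It was -0.12 without knockdown replicate 3 and -0.36 without knockdown replicate 1. Fnta, a subunit shared between protein prenyltransferases and another gene of chromosome 8, did not overlap between groups (log2 fold change -0.37, adjusted p = 0.404 by edgeR). The log2 fold change was 0.021 with chromosome medians removed. With library size alone it was 0.0024, where the median of all tested genes was 0.37.

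Another list held the LXR receptors and their targets with genes of cholesterol efflux, storage and lysosomal export. Of its 14 genes 12 were tested, with 0 called, 9 above 0, 6 at an unadjusted p under 0.05 (12.4% of all tested genes), and a median of 0.43, against -0.082 for the 8 genes. Without knockdown replicate 1 that median was 0.25. Soat1, which esterifies cholesterol for storage, was at 28.2, 22.8 and 30.3 CPM in the controls and 39.7, 44.5 and 43.3 CPM in the knockdown samples. All knockdown samples lay above the controls (log2 fold change 0.64, SE 0.17, adjusted p = 0.152 by edgeR, 0.0799 without knockdown replicate 1, where it was called, and 0.45 at the highest over the alternatives). With chromosome medians removed its log2 fold change was 0.40. Abcg1, a sterol exporter, had a log2 fold change of 0.49 (adjusted p = 0.319 by edgeR) and Nceh1, a cholesterol ester hydrolase, 1.27 (adjusted p = 0.393 by edgeR), both without overlap. Nceh1 had 2 to 14 counts in the controls, and its log2 fold change ran from 0.83 to 1.95 with 1 sample left out. Apoe, a lipoprotein component, had a log2 fold change of -1.09 without overlap (adjusted p = 0.29 by edgeR).

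Fatty acid synthesis genes, many of them targets of SREBP1, were highest in knockdown replicate 1 among the knockdown samples in 9 of 10 cases. Of these 10 genes edgeR called 0, with 7 below 0 and a median of -0.14. Without knockdown replicate 1 the median was -0.57 and 4 were called lower (Fasn, Acaca, Acss2 and Me1), in the fit that called 3.63% of all tested genes lower. The median was -0.041 and -0.017 without knockdown replicates 2 and 3, -0.27 without control replicate 2 and -0.062 without control replicate 3. DESeq2 called Fasn lower and Fads1 and Fads2 higher. The median deviation was 0.46 in knockdown replicate 1 against -0.5 and -0.4 in replicates 2 and 3, and 0.18, -0.13 and 0.31 in the controls. Fasn, the fatty acid synthase, was at 8420, 7366 and 9242 CPM in the controls and 5990, 2612 and 2908 CPM in the knockdown samples, without overlap (log2 fold change -1.12, SE 0.40, adjusted p = 0.289 by edgeR and 0.0095 by DESeq2). Fads1 and Fads2, desaturases of polyunsaturated fatty acids, stood at 0.65 and 0.69 in log2 fold change (edgeR adjusted p = 0.221 and 0.227, DESeq2 adjusted p = 0.0767 and 0.0901).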

How the data were processed

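RNA of 6 samples of 3T3-L1 cells was sequenced from stranded total RNA libraries. Per the labels, the authors trimmed reads with Trim Galore 0.6.7 and used STAR 2.7.10a, Salmon 1.9.0 and GRCm38. The deposited values are estimated counts per gene without normalization, of which 3.97% to 7.78% in a sample were not whole (tolerance 1e-06). The annotation release is not given in the sources used here. After rounding, condition alone was tested by edgeR 4.0.16 in R 4.3.3 (filterByExpr, TMM, glmQLFit, glmQLFTest, Benjamini-Hochberg adjustment over 11440 genes). Intervals (95%) use the moderated degrees of freedom, and log2 CPM a prior count of 2. Positions came from GENCODE M21 (11402 tested genes matched) and promoters from RefSeq.

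The 8 genes, the 6 pathway lists and the marker lists were chosen with earlier results of these data known. Genes named are the 8, Rbms1, other listed genes that were called by edgeR or DESeq2 or did not overlap between groups, defining cell markers, and the 3 genes most like the 8. Fdps, Srebf1, Acaca, Acss2, Me1, Lep, Retn, Lpl, Acsl1, Plin4, Cd36, Acta2 and the markers of other cell types were named after their values were seen. Alternatives were DESeq2 1.42.0, limma-voom (limma 3.58.1), RLE factors, library size alone, no filter, unrounded counts, a minimum of 1 CPM in 3 samples, a replicate block, removal of chromosome medians, and each sample left out. The earlier quasi-likelihood estimates were added after seeing the data. Some genes that this rule names are not reported here. The scripts were tested on simulated data.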

Additional observations from a re-analysis of the deposited data

How the results depend on the processing

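None of the 8 genes was called in any of the 16 alternatives. Of the 11440 genes, 140 were called, against 430 with DESeq2, 268 with no filter on low counts, 73 with chromosome medians removed and 39 with the replicate block. Leaving out 1 sample gave 12 (without control replicate 2) to 696 (without knockdown replicate 1), with 21, 32, 38 and 116 without control replicates 1 and 3 and knockdown replicates 2 and 3. The count of cholesterol synthesis genes called, 1, fell to 0 with library size alone, the replicate block (Pmvk -0.92, adjusted p = 0.201 by edgeR) and chromosome medians removed, and ran from 0 to 2 with a sample left out. The cause was not tested. Same-numbered samples did not deviate together (r of -0.144, 0.0785 and -0.0284 for replicates 1, 2 and 3), so the numbers were not taken as pairs, and under the replicate block the Sqle log2 fold change was -0.011.

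With library size alone the log2 fold change changed sign for Srebf2 (0.30), Insig1 (0.18), Hmgcs1 (0.33), Idi1 (0.047), Fdft1 (0.25), Mbtps1 (0.13), Fnta (0.0024), Adipoq (0.14), Cidec (0.099), Col1a1 (0.0059) and Col3a1 (0.16), all with a shift of 0.37 in the median of all genes. With chromosome medians removed it did so for Srebf2 (0.019), Mbtps1 (0.15) and Fnta (0.021). With 1 sample left out the ranges that crossed 0 were -0.18 to 0.094 for Srebf2, -0.12 to 0.11 for Hmgcs1, -0.33 to 0.028 for Fdft1, -0.28 to 0.20 for Sqle, -0.19 to 0.22 for Lss, -0.45 to 0.068 for Adipoq and -0.62 to 0.0094 for Col1a1. Control replicate 2 had the fewest counts (3142695), which limits the low genes most, and the smallest count of the 8 genes, 144, was the count of Mvd in it.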
